A study of Mus musculus with 36 samples.

Results

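The start of the night was compared with the start of the day in the hypothalamus of mice fed a high-fat diet. The members are 6 of the 36 libraries of the series, the 3 taken at zeitgeber time (ZT) 12 and the 3 taken at ZT 0 in the high-fat table, described across all genes. All groups used here were adult C57BL/6J mice whose suprachiasmatic nucleus (SCN) region was dissected from the fresh brain after 10 weeks on either high-fat diet or normal chow. No transgene, deletion or drug is named for any group. Whether the replicates of a group are separate animals or pools is not stated, and p-values therefore cover only the spread between samples. Both diets had 3 libraries at ZT 0, 4, 8, 12, 16 and 20, and the same contrast under normal chow (6 libraries) is given beside the high-fat values.

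The SCN is the master circadian pacemaker of mammals and takes its light input directly from the retina. In its cells CLOCK and BMAL1 drive transcription from E-box elements, PER and CRY proteins repress them, and REV-ERB and ROR receptors set the rhythm of Bmal1 itself. Zeitgeber time counts hours from lights on, so that ZT 0 and ZT 12 are by convention the 2 light transitions, and nocturnal animals such as mice become active around the later one. Circulating corticosterone, the main glucocorticoid of mice, is known to peak near the onset of activity, and many brain cells other than SCN neurons carry its receptor.

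Levels are FPKM rescaled so that every library sums to 1000000, and log2 differences are on the log2(value + 1) scale, ZT 12 minus ZT 0, which understates the change of genes at low levels. Of 24883 rows, 15106 had a mean level of at least 1 and were tested with limma, and a gene was called at a Benjamini-Hochberg adjusted p under 0.05. The 6 libraries had 18599 to 18996 rows above 0, and deposited FPKM summed to 363184 to 413569. Reads per library are unknown.

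One library stood apart. The ZT 0 replicate 3 library correlated with the other 5 at Pearson r of 0.948 to 0.967 across genes, whereas the pairs without it lay at 0.970 to 0.977. It had the highest summed levels among the 6 of markers of oligodendrocytes (9466, against 4176 to 6643 in the others), of endothelial and mural cells (866 against 298 to 517), of liver (914 against 33.7 to 334) and of meninges and fibroblasts (836 against 126 to 447). It also had the lowest level of Six6, a transcription factor that marks the SCN, at 1.36, whereas the highest was 10.6 in ZT 12 replicate 1. This 1 marker was therefore present in all 6 libraries, but at unequal and partly low levels. Results are given with and without that library where it matters. In bulk tissue, fewer cells of a type and less RNA per cell cannot be told apart.

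**Figure D1:**
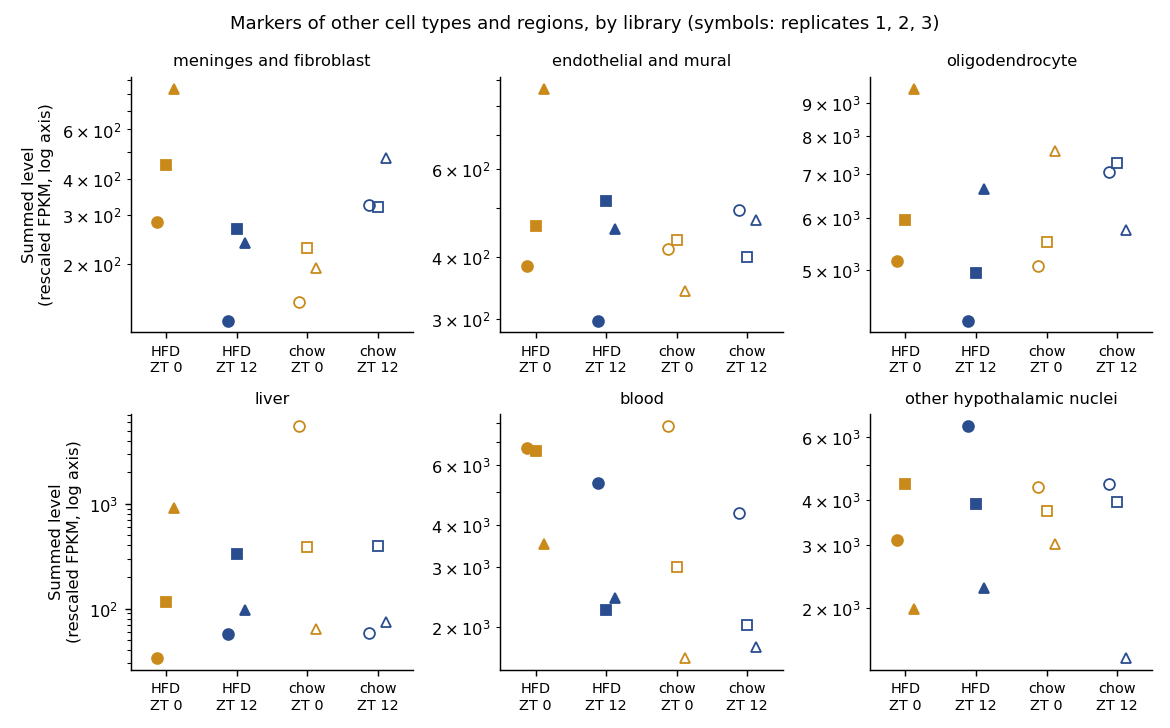
Summed level (rescaled FPKM, log axis) of marker lists of other cell types and regions in each library at ZT 0 and ZT 12; filled symbols are high-fat diet, open symbols normal chow, and circle, square and triangle are replicates 1, 2 and 3. The triangle of high-fat ZT 0 is the highest high-fat point for meninges, endothelial cells, oligodendrocytes and liver, and the meninges points of the 2 diets move in opposite directions.

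In all, 3 genes, 2 higher and 1 lower, were called between ZT 12 and ZT 0 under high-fat diet. Sgk1 and Tsc22d3, both classical targets of the glucocorticoid receptor, rose, and Fabp7, the brain fatty acid binding protein of astrocytes and radial glia, fell. The 3 calls are 0.0199% of the rows tested. At an unadjusted p under 0.05, 117 rows were higher at ZT 12 (0.775%) and 337 were lower (2.23%).

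Sgk1 (chromosome 10, 21882184 to 21999903, GRCm38) encodes a serum- and glucocorticoid-regulated kinase that acts on ion channels and transporters. Its level was 19.6, 22.3 and 22 in the ZT 0 libraries and 61.4, 76.5 and 125 at ZT 12. Every ZT 12 library was above every ZT 0 library, and the ZT 12 libraries were also the more scattered. The means were 21.3 ± 1.45 and 87.7 ± 33.3 (SD, n = 3 each), a 4.12-fold rise with a log2 difference of 1.93 ± 0.27 (SE; limma adjusted p = 0.0180). Across the day the high-fat means of Sgk1 were 21.3, 24.1, 30.7, 87.7, 40.6 and 31.0 from ZT 0 to ZT 20, so that ZT 12 was the highest of the 6 times.

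Tsc22d3 (chromosome X, 140539528 to 140600659, GRCm38) encodes the glucocorticoid-induced leucine zipper, GILZ. It stood at 103, 92.7 and 104 at ZT 0 and at 168, 181 and 209 at ZT 12, without overlap. The ZT 12 mean was 186 ± 21.2 (SD, n = 3), a 1.86-fold rise with a log2 difference of 0.88 ± 0.12 (SE; limma adjusted p = 0.0180). Its means at the later times were 107 at ZT 4, 133 at ZT 8, 186 at ZT 12, 138 at ZT 16 and 144 at ZT 20.

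Fabp7 (chromosome 10, 57784881 to 57788450, GRCm38) had levels of 193, 256 and 252 at ZT 0 and of 111, 110 and 99.6 at ZT 12. The ZT 12 libraries lay close together and well below all ZT 0 libraries. Its mean at ZT 12, 107 ± 6.33, was 0.458 of the mean at ZT 0, 234 ± 34.8 (SD, n = 3 each), and it fell by 1.11 ± 0.15 on the log2 scale (SE; limma adjusted p = 0.0180). The level of Fabp7 at ZT 16, 116, was still near that of ZT 12, and ZT 0 was the highest of the 6 times.

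Without the ZT 0 replicate 3 library none of the 3 passed the threshold (limma adjusted p = 0.115 for each, in a range of 2.08e-05 to 0.247 over all the alternatives and the 3 genes). No gene was called either without ZT 0 replicate 2, ZT 12 replicate 2 or ZT 12 replicate 3, and Fabp7 alone was called without ZT 0 replicate 1. Without ZT 0 replicate 3 the log2 differences were 1.95, 0.91 and -1.05 for Sgk1, Tsc22d3 and Fabp7. At an unadjusted p under 0.05, 119 rows were then higher and 142 lower, so the larger number of lower rows rests in part on that library. Leaving out ZT 12 replicate 1 gave 170 lower rows, and leaving out ZT 0 replicate 1 gave 538.

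**Figure D2:**
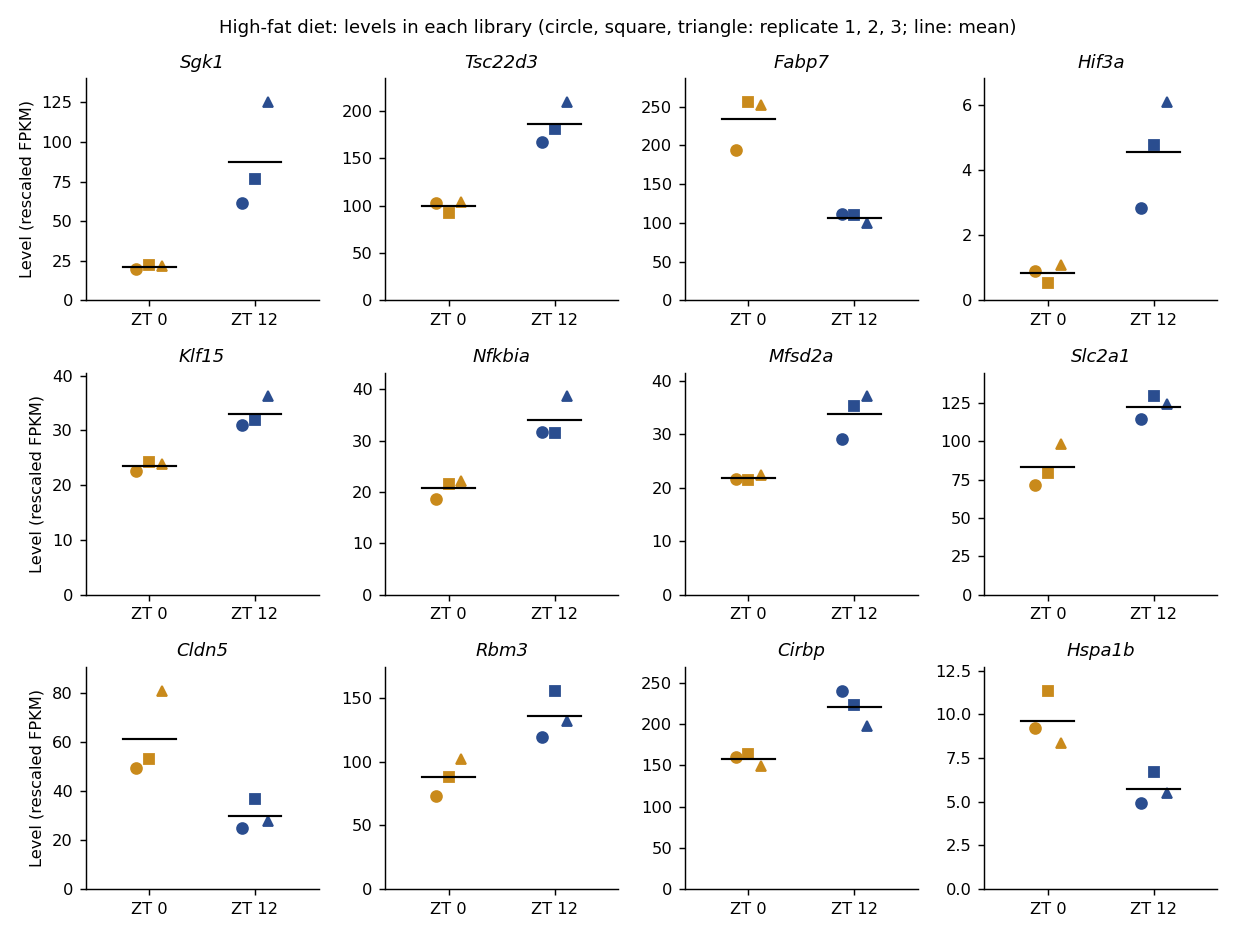
Level (rescaled FPKM) of 12 genes in each high-fat library at ZT 0 (ochre) and ZT 12 (blue); circle, square and triangle are replicates 1, 2 and 3, and the line is the mean. The 3 called genes are the first 3 panels, and in all 12 panels the points of the 2 times do not overlap.

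Genes known to respond to glucocorticoids led the higher side. Of the 20 members tested (of 21 in the list), 15 were higher at ZT 12 and 5 lower, 2 were called, 10 had an unadjusted p under 0.05 in the higher direction and 1 in the lower. In 11 all ZT 12 libraries were above all ZT 0 libraries and in 1 all were below, whereas 4.29% and 5.04% of all rows tested had no overlap in these directions. The median log2 difference was 0.40, against 0.0027 over all rows. The list was written with earlier results of these data known, so its counts are a description.

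Hif3a, a hypoxia-inducible factor subunit whose transcript is also induced by glucocorticoids, was at 0.901, 0.545 and 1.09 at ZT 0 and at 2.83, 4.77 and 6.08 at ZT 12. Its mean was 5.39-fold higher, with a log2 difference of 1.56 ± 0.28 (SE), but it was not called (limma adjusted p = 0.160). Klf15, a Krüppel-like factor that links glucocorticoids to amino acid and glucose metabolism, was at 22.6, 24.3 and 23.8 against 31.0, 31.9 and 36.2. The 3 ZT 12 libraries were all above those of ZT 0 by a small margin, a log2 difference of 0.47 ± 0.09 (SE; limma adjusted p = 0.160). Nfkbia, which encodes the NF-κB inhibitor IκBα, was at 18.6, 21.6 and 22.1 against 31.7, 31.4 and 38.6, a log2 difference of 0.68 (limma adjusted p = 0.323).

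Other members of this list, chosen for naming after their values were seen, had the same direction with more scatter. Zbtb16, a zinc finger repressor, was at 3.94, 3.20 and 4.69 against 6.09, 8.90 and 14.1, and Klf9 at 31.5, 31.6 and 35.6 against 44.7, 44.9 and 64.3. In both, ZT 12 replicate 3 was the highest library, as it was for Sgk1, Tsc22d3, Hif3a, Klf15 and Nfkbia. Fkbp5, a co-chaperone of the glucocorticoid receptor and a common marker of its activity, was only 20.9, 21.7 and 21.4 against 22.4, 26.4 and 26.9 (limma unadjusted p = 0.101). Without ZT 12 replicate 3 the log2 difference of Sgk1 was 1.64 and that of Tsc22d3 0.80 (limma adjusted p = 0.0943 for each).

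Angptl4, a secreted inhibitor of lipoprotein lipase that glucocorticoids and fatty acids both induce elsewhere, went the other way. Its level was 10.2, 12.8 and 11.3 at ZT 0 and 6.88, 8.13 and 6.85 at ZT 12, without overlap, with a log2 difference of -0.58 (limma unadjusted p = 0.00752, not called).

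**Figure D3:**
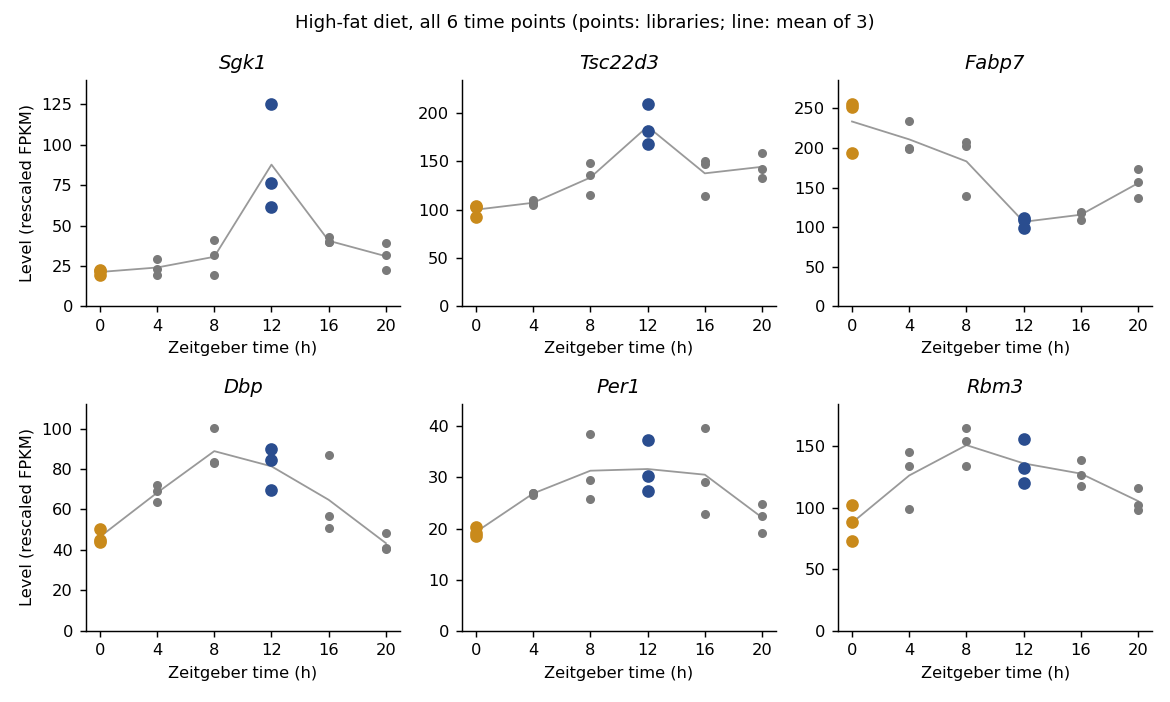
Level (rescaled FPKM) of 6 genes at all 6 zeitgeber times (h) under high-fat diet; points are libraries, ochre at ZT 0, blue at ZT 12 and grey at the other times, and the line joins the means of 3. Sgk1 and Tsc22d3 have their highest mean at ZT 12, Fabp7 its lowest, and Dbp and Rbm3 have their highest mean at ZT 8.

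None of the 25 members of the core clock list was called. Of these, 19 were higher at ZT 12 and 6 lower, and 6 had an unadjusted p under 0.05, all higher (Dbp, Ciart, Per1, Per2, Cry1 and Nr1d2). In 8 the libraries did not overlap in the higher direction and in 1 in the lower. Among all rows tested, 4.29% and 5.04% did not overlap in these directions, and 0.775% were higher at an unadjusted p under 0.05. The median log2 difference was 0.10.

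Dbp and Ciart had the largest log2 differences of the list. Dbp (chromosome 7, 45705088 to 45710203, GRCm38), a PAR bZIP factor that carries clock output to D-box genes, was at 44.0, 50.5 and 44.9 at ZT 0 and at 84.3, 69.8 and 89.9 at ZT 12. Its mean was 1.75-fold higher, a log2 difference of 0.79 ± 0.16 (SE; limma adjusted p = 0.262), and it was higher still at ZT 8 (88.9). Ciart, a repressor of CLOCK and BMAL1 also known as CHRONO, was at 10.3, 12.6 and 9.67 against 17.3, 16.8 and 20.8, a log2 difference of 0.70 ± 0.17 (SE; limma adjusted p = 0.658).

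Per1 was at 19.2, 20.2 and 18.6 at ZT 0 and at 27.4, 30.2 and 37.3 at ZT 12, a log2 difference of 0.67 ± 0.18 (SE). Per2 was at 9.56, 9.04 and 9.15 against 14.5, 15.4 and 14.4, with little scatter within either time (0.62 ± 0.17 SE). Both encode period proteins, the core of the repressor complex, and neither was called (limma adjusted p = 0.764 and 0.918). Per3, which is dispensable for rhythm in mice, overlapped between the times, at 10.9, 12.2 and 12.3 against 12.0, 16.4 and 17.9.

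Cry1, a cryptochrome that pairs with the period proteins, was at 18.6, 19.4 and 17.4 against 27.3, 24.0 and 22.2, whereas Cry2 overlapped (57.8, 62.4 and 59.7 against 62.1, 60.1 and 70.2). Nr1d2, the gene for REV-ERBβ, was at 61.6, 60.0 and 59.6 against 72.9, 73.6 and 74.3, a small but tight separation with a log2 difference of 0.28 ± 0.13 (SE; limma unadjusted p = 0.0471). Nr1d1, the gene for REV-ERBα, overlapped, at 82.8, 87.6 and 77.2 against 89.0, 84.5 and 87.8. Rora, an activating orphan receptor, and Fbxl21, an F-box protein that binds cryptochromes, did not overlap and had log2 differences of 0.39 and 0.28 (limma unadjusted p = 0.142 and 0.283).

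Arntl, which encodes BMAL1, was the clock member with the lowest log2 difference. It was at 20.6, 21.0 and 19.0 at ZT 0 and at 17.8, 15.2 and 15.4 at ZT 12, without overlap, with a log2 difference of -0.31 ± 0.16 (SE; limma unadjusted p = 0.0778). Of the other members, Clock, Npas2, Nfil3, Tef, Hlf and the kinase genes Csnk1d and Csnk1e had log2 differences between -0.17 and 0.16, with overlapping libraries.

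**Figure D4:**
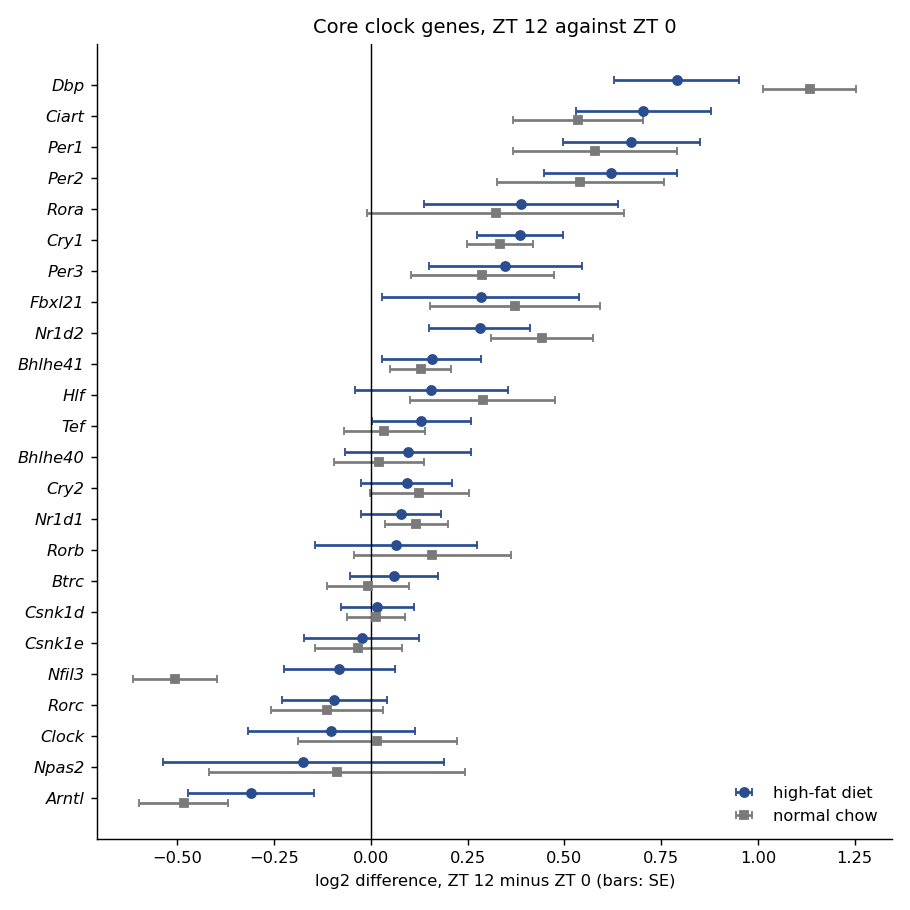
log2 difference (ZT 12 minus ZT 0) of 24 of the 25 core clock genes with its SE, circles for high-fat diet and squares for normal chow, ordered by the high-fat value. Dbp, Ciart, Per1 and Per2 lie farthest to the right under high-fat diet at 0.79 to 0.62, and Arntl lies farthest to the left in that diet at -0.31.

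The promoters of several of these genes hold the E-box CACGTG, a palindrome that reads the same on both strands. RefSeq windows (GRCm38.p6, 250 bases before to 50 after the start) were matched for 19 of the 25 clock genes, and 5 of these (26.3%) held it, against 8.09% of all 27025 genes with a window. The 5 were Ciart, Per1, Cry1, Tef and Bhlhe41. The libraries of the first 3 did not overlap between the times, whereas those of Tef and Bhlhe41 did (log2 differences of 0.13 and 0.16). Ciart, Per1 and Cry1 are shown as the members with no overlap, and Klf15 as the glucocorticoid-responsive gene with 3 E-boxes. Capitals mark the E-boxes and, in Klf15, the heat shock half-site pair TTCNNGAA, which 9.60% of all genes hold on either strand. The windows are chr3:95882179-95882478 on the minus strand for Ciart, chr11:69098699-69098998 on the plus strand for Per1, chr10:85185005-85185304 on the minus strand for Cry1 and chr6:90462326-90462625 on the plus strand for Klf15.
Ciart: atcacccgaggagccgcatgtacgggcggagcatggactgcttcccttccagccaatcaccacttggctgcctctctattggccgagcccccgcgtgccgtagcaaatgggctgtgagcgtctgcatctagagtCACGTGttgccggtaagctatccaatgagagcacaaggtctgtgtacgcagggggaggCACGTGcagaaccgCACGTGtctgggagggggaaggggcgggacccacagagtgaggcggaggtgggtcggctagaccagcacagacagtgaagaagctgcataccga
Per1: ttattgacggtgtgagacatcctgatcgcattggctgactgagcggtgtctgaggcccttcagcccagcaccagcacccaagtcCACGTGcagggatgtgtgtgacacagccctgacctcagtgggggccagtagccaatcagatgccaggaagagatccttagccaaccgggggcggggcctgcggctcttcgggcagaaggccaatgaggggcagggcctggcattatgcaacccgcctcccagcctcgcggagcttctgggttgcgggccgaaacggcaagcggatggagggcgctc
Cry1: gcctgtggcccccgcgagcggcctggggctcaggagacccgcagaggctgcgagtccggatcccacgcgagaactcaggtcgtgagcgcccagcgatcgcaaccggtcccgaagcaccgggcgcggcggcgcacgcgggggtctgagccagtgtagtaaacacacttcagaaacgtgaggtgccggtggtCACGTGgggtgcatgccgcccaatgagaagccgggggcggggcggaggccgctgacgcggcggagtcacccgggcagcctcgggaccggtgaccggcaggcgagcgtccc
Klf15: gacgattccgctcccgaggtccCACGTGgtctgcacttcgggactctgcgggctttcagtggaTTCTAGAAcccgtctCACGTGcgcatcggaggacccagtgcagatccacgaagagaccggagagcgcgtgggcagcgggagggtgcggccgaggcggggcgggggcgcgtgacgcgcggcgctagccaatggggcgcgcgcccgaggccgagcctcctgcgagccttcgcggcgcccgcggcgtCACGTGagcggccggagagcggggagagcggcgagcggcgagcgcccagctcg
In Ciart the 3 E-boxes begin 116, 58 and 44 bases before the start, and in Klf15 they begin 228, 172 and 3 bases before it. Other windows of Per1, and those of Fabp7, Tsc22d3, Dbp and Nr1d2, hold neither motif in their stretch. Of the 6 windows of Sgk1, 1 held an E-box, beginning 246 bases before its start, and another a half-site pair, 128 bases before its start. A match is a description of the letters, not of a bound site. The D-box TTATGTAA or TTACGTAA was in 1.23% of all genes and the cAMP response element TGACGTCA in 2.03%, and 1 of the 19 clock genes held each (Per3 and Hlf).

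Levels of SCN genes differed widely between libraries of the same time. Of 21 SCN peptides, factors and receptors, 16 were higher and 5 lower, with a median log2 difference of 0.14. Just 1 was higher at an unadjusted p under 0.05, as were 0.775% of all rows. That member was Rasd1, a dexamethasone-inducible Ras-like protein of SCN photic responses, at 21.0, 17.5 and 12.7 against 60.2, 32.2 and 20.5, with overlap. Its log2 difference was 0.99 ± 0.32 (SE; limma unadjusted p = 0.00735, not called), and its order within each time was that of Six6 at ZT 12 (10.6, 3.38 and 2.75) but not at ZT 0 (5.41, 8.05 and 1.36). Vip, the peptide that synchronises SCN neurons, was at 50.2, 46.4 and 17.3 against 135, 65.4 and 19.1. Avp, the peptide of the SCN shell and of neighbouring nuclei, was at 1192, 3327 and 1133 against 3686, 2125 and 769.7. Without ZT 12 replicate 1 no member of the list had an unadjusted p under 0.05. The median of the list was below 0 without ZT 0 replicate 3 (-0.03) or ZT 12 replicate 1 (-0.09), so no direction is given for it. The part of SCN content, which may differ between libraries, was not tested.

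Levels of 2 peptide genes of neighbouring nuclei also differed widely between libraries of the same time. Hcrt, the orexin gene of the lateral hypothalamus, was at 1.93, 57.2 and 0.979 at ZT 0 and at 126, 3.35 and 282 at ZT 12, and Pmch, the melanin-concentrating hormone gene, was at 5.75, 236 and 5.34 against 414, 4.96 and 523. The same libraries were high for both. Of 28 feeding peptides and receptors, 15 were higher and 13 lower. At an unadjusted p under 0.05, where 2.23% of all rows were lower, stood 1 member, Lepr, the leptin receptor gene. It was at 1.77, 2.80 and 5.61 against 0.680, 1.42 and 1.94, with overlap, and without ZT 0 replicate 3 no member of the list had such a p.

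Chaperone genes were lower at ZT 12 as a group, with none called. Of 20 cytosolic heat shock chaperones, 19 were lower, 6 with an unadjusted p under 0.05 and 7 without overlap, and the median log2 difference was -0.14. Of all rows tested, 2.23% were lower at such a p and 5.04% were lower without overlap. Hspa1b, an inducible HSP70, was at 9.24, 11.4 and 8.34 at ZT 0 and at 4.93, 6.71 and 5.50 at ZT 12, a log2 difference of -0.66 ± 0.16 (SE; limma adjusted p = 0.658). Its near-identical copy Hspa1a had a log2 difference of -0.48, and reads may have been split between them. Bag3, a co-chaperone of HSP70, was at 16.7, 14.2 and 19.1 against 11, 12.5 and 11.6. Hspb1 and Cryab, small heat shock proteins found in glia and vessel walls as well, had log2 differences of -0.91 and -0.59. Cryab overlapped between the times. Both were highest in ZT 0 replicate 3, and without it their log2 differences were -0.73 and -0.47. Under chow the log2 difference was 0.38 for Hspb1 and -0.40 for Cryab.

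Without ZT 0 replicate 3, 20 of the 20 were lower, 7 at an unadjusted p under 0.05, with a median of -0.20. Without ZT 0 replicate 1, 17 were lower, 5 at such a p, and the median was -0.08, and without ZT 12 replicate 3, 17 were lower and the median was -0.10. Hspa8, the constitutive HSC70 gene, was at 2764, 2511 and 2351 against 2388, 2401 and 2152, with overlap. RefSeq windows were matched for 16 of the 20, and 5 of these (31.2%) held TTCNNGAA, against 9.60% of all genes with a window. The 5 were Hsph1, Hspe1, Hspd1, Chordc1 and Dnajb4, whereas the windows of Hspa1b, Bag3 and Hspb1 held none.

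Of 18 endoplasmic reticulum chaperones and unfolded protein response genes, 14 were lower, 2 with an unadjusted p under 0.05 and 7 without overlap (median -0.16). The lower shares over all rows were 2.23% at such a p and 5.04% without overlap. Sdf2l1, an ER protein that assists HSPA5, was at 37.1, 40.4 and 30.9 against 25.8, 23.6 and 18.7, a log2 difference of -0.65 ± 0.16 (SE; limma adjusted p = 0.677). Creld2 was at 38.6, 38.7 and 34.3 against 29.2, 31.4 and 27.0. Hspa5, the gene for BiP, was at 448, 415 and 400 against 380, 387 and 310 (limma unadjusted p = 0.0552).

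The cold-inducible RNA-binding proteins went the opposite way to the chaperones. Rbm3 was at 72.9, 88.0 and 102 at ZT 0 and at 120, 156 and 132 at ZT 12, a log2 difference of 0.63 ± 0.15 (SE; limma adjusted p = 0.654). Cirbp was at 160, 164 and 149 against 241, 223 and 198, a log2 difference of 0.48 ± 0.13 (SE; limma adjusted p = 0.764). Neither overlapped and neither was called. The splicing regulators in the same list of 18 did not share the direction (median of the list -0.02), and Tra2a, an SR-like splicing factor, was at 117, 114 and 99.2 against 77.3, 103 and 84.6.

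Light- and activity-induced genes stood lower at ZT 12, 17 of 21 tested, with 3 at an unadjusted p under 0.05, 5 without overlap and a median of -0.27. For all rows, 2.23% were lower at such a p and 5.04% without overlap. Fos, the standard marker of neuronal activation, was at 11.4, 13.1 and 11.8 against 7.07, 11.1 and 7.24, a log2 difference of -0.49 ± 0.21 (SE; limma unadjusted p = 0.0344). Fosl2 and Btg2 had log2 differences of -0.48 and -0.31. No member reached an unadjusted p under 0.05 once ZT 0 replicate 3, or ZT 0 replicate 2, was left out, and the median was -0.13 without ZT 12 replicate 1.

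Of 30 genes of fatty acid handling and oxidation, Fabp7 included, 7 were higher and 23 lower, and 2 and 6 had an unadjusted p under 0.05. The shares of all rows at such a p were 0.775% higher and 2.23% lower. Mfsd2a, the endothelial carrier of lysophosphatidylcholine with docosahexaenoic acid, was at 21.7, 21.5 and 22.4 against 29.2, 35.4 and 37.1, a log2 difference of 0.60 ± 0.11 (SE; limma adjusted p = 0.160). Plin2, a lipid droplet coat protein, was at 15, 15.1 and 20.6 against 12.9, 13.1 and 12.3. Without ZT 0 replicate 3, the 6 lower members with such a p were 2, with Fabp7 counted among them in both. Of 28 genes of cholesterol and fatty acid synthesis, 23 were lower and none had an unadjusted p under 0.05.

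Few genes of energy metabolism had an unadjusted p under 0.05. Slc2a1, the glucose transporter GLUT1 of the blood-brain barrier and astrocytes, was at 71.7, 79.0 and 98.5 against 115, 129 and 124, a log2 difference of 0.57 ± 0.13 (SE; limma adjusted p = 0.526). Idh3g, a subunit of mitochondrial isocitrate dehydrogenase, was at 208, 198 and 190 against 225, 218 and 220. These were the 2 of 34 glycolysis and TCA cycle genes with an unadjusted p under 0.05, and 0.775% of all rows were higher at such a p. Of the 34, 27 were higher at ZT 12, but 16 without ZT 0 replicate 3. Of 36 oxidative phosphorylation genes none had such a p (median 0.02). In that list 26 were higher, but 16 without ZT 0 replicate 3. Of 25 genes of NAD and amino acid metabolism 1 had such a p, Gpt2, a mitochondrial alanine transaminase (0.29 ± 0.11 SE).

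The inflammation and interferon list had the lowest median of the 14 pathway lists, -0.33, with 22 of 23 tested members lower, 6 at an unadjusted p under 0.05 and 9 without overlap. Across all rows, 2.23% were lower at such a p and 5.04% were lower without overlap. Gfap, the intermediate filament of astrocytes, was at 311, 395 and 593 at ZT 0 and at 255, 227 and 210 at ZT 12. Isg15, an interferon-induced ubiquitin-like protein, was at 11.1, 11.9 and 17.1 against 5.82, 7.70 and 7.51. Bst2 (tetherin) was at 15.8, 16.9 and 31.0 against 11, 12.8 and 10.6, and H2-K1, a class I histocompatibility antigen, at 54.4, 59.8 and 84.3 against 40.1, 47.5 and 49.3. In each of these the highest value was that of ZT 0 replicate 3, and without it 2 of the 23 had an unadjusted p under 0.05 and the median was -0.17.

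**Figure D5:**
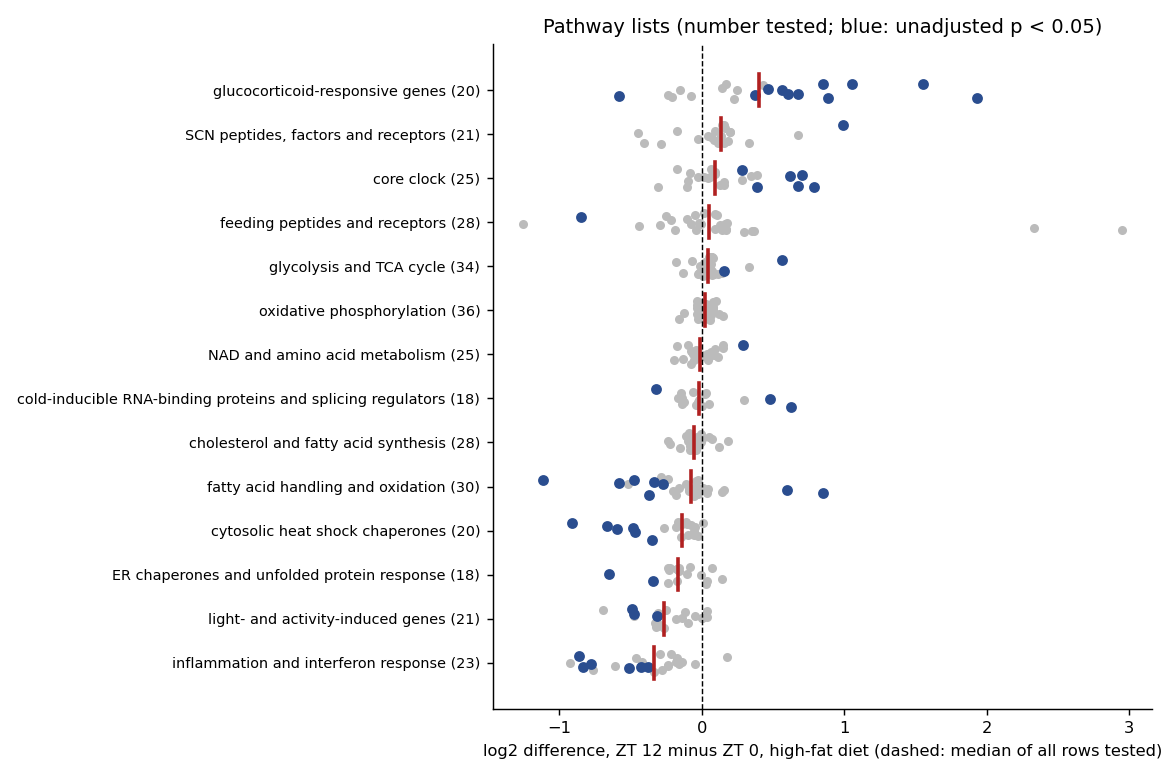
log2 difference (ZT 12 minus ZT 0, high-fat diet) of every tested member of the 14 pathway lists; blue points have an unadjusted p under 0.05, grey points do not, red bars are list medians and the dashed line is the median of all rows tested. The glucocorticoid list has the highest median, 0.40, and the inflammation list the lowest, -0.33.

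Several cell type lists moved with these results. All 15 meningeal and fibroblast markers were lower at ZT 12. Of these, 3 had an unadjusted p under 0.05 (Col3a1, Slc6a13 and Col1a1), and 2.23% of all rows were lower at such a p. The summed level of the 15 was 282, 447 and 836 at ZT 0 and 126, 266 and 237 at ZT 12. All 13 oligodendrocyte markers were lower, with sums of 5161, 5950 and 9466 against 4176, 4934 and 6643. Endothelial and mural markers summed to 383, 461 and 866 against 298, 517 and 455, with 12 of 17 lower. Without ZT 0 replicate 3, 9 of the 17 were higher and 8 lower, with a median log2 difference of 0.06 in place of -0.19, and the oligodendrocyte median was -0.12 in place of -0.33. Without ZT 12 replicate 1, these medians were -0.01 and -0.19, with 9 of the 17 lower. All 13 oligodendrocyte markers were lower in each of these fits. Neuronal markers summed to 5283 to 6502 and 5840 to 6162, and astrocyte markers to 3596 to 4859 and 3979 to 4532. No row of these lists was at 0 in all 6 libraries, and the part of these cells in the gene results was not tested. Fabp7 is an astrocyte-enriched gene. The summed astrocyte markers overlapped between the times, and of the 14 markers 6 were higher and 8 lower. Of the lower ones 2, Gfap among them, did not overlap, and 5.04% of all rows were lower without overlap. The median log2 difference of the 14 was -0.06, against 0.09 without ZT 0 replicate 3 and 0.0035 without ZT 12 replicate 1. The part of astrocyte content in the fall of Fabp7 was not tested.

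Other genes had small p-values without being called. Cldn5, the tight junction claudin of brain endothelium, was at 49.4, 53.1 and 81.1 against 25.1, 36.7 and 27.9, a log2 difference of -0.99 ± 0.24 (SE; limma adjusted p = 0.658). Mmp14, a membrane matrix metalloproteinase, was at 21.7, 26.8 and 35.5 against 15, 18.5 and 16.5. Both were highest in ZT 0 replicate 3, and without it their log2 differences were -0.78 and -0.51. Foxs1, a forkhead factor, was at 1.92, 1.82 and 2.84 against 0.743, 0.566 and 0.976. It passed the minimum mean level only through the ZT 0 libraries and was not tested once ZT 0 replicate 3 was left out or under chow, so its values are a description. Zfp36l2, an mRNA-decay factor, had a log2 difference of -0.54, Cdc42ep1 of -0.57 and Cdk2ap2 of -0.43, all without overlap. On the higher side were Kcns3, a modulatory potassium channel subunit, at 3.07, 3.33 and 2.80 against 6.00, 4.89 and 5.24, and Plekhf1, at 4.48, 4.66 and 7.26 against 9.58, 9.87 and 14.1.

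Mir434, the row of a short miRNA hairpin, was listed at 1923, 4435 and 2368 at ZT 0 and at 0 in all ZT 12 libraries. It was also listed at 0 in all libraries of ZT 4, ZT 16 and ZT 20, with a mean of 1945 at ZT 8, and at 0 in every chow library of these 2 times, and no fold is given.

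Under normal chow the same contrast gave 16 called rows of 15150 (0.106%), and 550 rows were higher (3.63%) and 578 lower (3.82%) at an unadjusted p under 0.05. All 16 had the same direction under high-fat diet, and 11 had an unadjusted p under 0.05 there. Of all rows tested under high-fat diet, 0.775% were higher and 2.23% lower at such a p. Tsc22d3 and Fabp7 were called in both diets. The log2 differences of the called genes under chow were 1.93 for Sgk1 (limma adjusted p = 0.0688), 0.86 for Tsc22d3 and -1.20 for Fabp7. The level of Fabp7 under chow was 348, 367 and 314 at ZT 0 and 191, 145 and 119 at ZT 12, so that it was lower at ZT 12 without overlap there too. The median residual SD was 0.204 under high-fat diet and 0.166 under chow.

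The change from ZT 0 to ZT 12 was tested for a difference between the diets within each table. None of 15173 rows was called (0%, smallest limma adjusted p = 0.858), and 448 (2.95%) had an unadjusted p under 0.05, 89 above and 359 below 0. For the 3 called genes the difference, high-fat minus chow, was 0.0047 for Sgk1 (95% interval -0.988 to 0.998), 0.02 for Tsc22d3 (-0.26 to 0.31) and 0.08 for Fabp7 (-0.40 to 0.57). The intervals for Sgk1 are wide, and differences up to their bounds are not shown to be absent.

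Rbm3 and Dbp, both called under chow (log2 differences of 1.05 and 1.13), had differences between diets of -0.42 (95% interval -0.78 to -0.06) and -0.34 (-0.77 to 0.08). Nfil3, a repressor of D-box genes, had a log2 difference of -0.50 under chow and -0.08 under high-fat diet, and the difference was 0.42 (0.06 to 0.78; limma unadjusted p = 0.0226). The median of the glucocorticoid list was 0.34 under chow and 0.40 under high-fat diet, and that of the clock list 0.13 and 0.10. The heat shock list had medians of -0.27 and -0.14, and the inflammation list 0.0091 and -0.33.

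The 5 smallest p-values of the difference between diets were those of Cd248, Fgfbp3, Gadd45b, Lum and Cyp1b1. Lum, a small proteoglycan of fibroblasts, had log2 differences of -0.76 under high-fat diet and 1.23 under chow. Cd248, endosialin of pericytes and fibroblasts, had -0.45 and 0.67, and Cyp1b1, a cytochrome of vessel walls and meninges, had -0.97 and 0.75. Gadd45b, a stress-induced gene, had -0.57 and 0.53, and Fgfbp3, which encodes a carrier of fibroblast growth factors, -0.55 and 0.39. These are the directions of the meningeal markers in each diet, whose sum was lower at ZT 12 under high-fat diet and higher at ZT 12 under chow. High-fat ZT 0 replicate 3 had the highest such sum of the 6 libraries. Without it the high-fat log2 differences were -0.46 for Lum, -0.24 for Cd248, -0.63 for Cyp1b1 and -0.40 for Gadd45b. That of Fgfbp3, which was lowest at ZT 0 in that library, was then farther below 0, at -0.67. Lum is itself a member of that marker list. The part of meningeal content in these 5 differences was not tested.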

How the data were processed

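RNA of an SCN-enriched region was measured by RNA-seq after an RNeasy Micro extraction and a TruSeq stranded mRNA library preparation, per the labels' protocols. Trimmomatic, TopHat and Cufflinks and the builds mm10 and GRCm38 are named in the submitters' processing notes, with no versions or options. The deposited values, 1 table per diet, are taken as FPKM because of their range and because Cufflinks reports that unit; no header names one. Any further scaling by the authors is not given in the sources used here. A difference between tables cannot be told apart from diet in a level, whereas it cancels in a change within a table.

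Each library was rescaled to 1000000, and log2(value + 1) was tested in limma 3.58.1 (R 4.3.3) with a mean-variance trend, two-sided, over rows with a mean of at least 1. Each diet's fit used its 18 libraries in 6 groups, which gave 12 residual degrees of freedom, and the difference between diets used all 36. The fit was also run on simulated libraries with independent noise. That run held no outlying library and no shift in cell content, so it does not cover these. Of 24346 symbols, 280 stood on several rows, which were kept apart. All library columns were mapped to samples, and no 2 of the 6 libraries were identical.

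The members, the 29 gene lists and the tests were chosen with earlier results of these data known. Named were called genes, the 10 smallest p-values each way, the clock genes, up to 4 members of each other list at an unadjusted p under 0.05 and the 5 smallest p-values of the difference between diets; rows with provisional names were counted but not named. 1 clock gene is counted in its list and is not reported here. Zbtb16, Klf9, Fkbp5, Vip, Avp, Hcrt, Pmch, Six6, Hspa1a, Hspa8, Hspa5, Col3a1, Slc6a13, Col1a1 and Per3 and Hlf as motif holders were named after their values were seen. Gene positions come from GENCODE (GRCm38) for the 68 genes named under the rule, and RefSeq windows were found for 54. Alternatives covered the pseudocount, the filter, the scaling, the variance estimate, a replicate block, the libraries in the fit and leaving out each library.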

Additional observations from a re-analysis of the deposited data

Results flagged for a closer look

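The summed level of the 15 meningeal and fibroblast markers went in opposite directions in the 2 diets, which is why it is listed here. Under high-fat diet the sum at ZT 12 was 0.402 of that at ZT 0, with 126, 266 and 237 against 282, 447 and 836. Under normal chow it was 1.97-fold higher at ZT 12, with 324, 319 and 475 against 146, 229 and 194. In neither diet did the libraries of the times overlap, and the difference of the sums was not tested. Per gene, all 15 had a difference between diets below 0, each with a limma unadjusted p under 0.05. Of all 15173 rows, 359 were below 0 at such a p. None of the 15 was called (smallest limma adjusted p = 0.858), and all 15 were read from the same libraries. Without high-fat ZT 0 replicate 3 all 15 were still lower at ZT 12 under high-fat diet, with a median of -0.76 in place of -1.16. In that diet 1 of the 15 then had a limma unadjusted p under 0.05, in place of 3.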

How the results depend on the processing

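The 3 calls under high-fat diet were 1 with FPKM as deposited (Sgk1) and 0 with the replicate block. They were 1 from the 6 libraries alone (Mir434) and 11 from all 36 libraries. Leaving out 1 ZT 0 or ZT 12 library gave 0 to 4. The count was 0 without ZT 0 replicate 2 or 3 or ZT 12 replicate 2 or 3. Deviations of same-numbered ZT 0 and ZT 12 libraries from their group means correlated at r of 0.194, -0.093 and 0.032. Pairs with different numbers lay between -0.269 and 0.25. These values cannot decide whether a number marks a shared day or batch, which is not stated. Under chow the 16 were 5 from the 2 time points alone and 4 to 20 with 1 library of these times left out. The difference between diets gave 2 and 0 to 1 in these settings. Both pseudocounts (0.1 and 5), both filters, median-of-ratios scaling and robust estimation gave 2 to 3, 11 to 21 and 0; the cause of the changes was not tested. Leaving out high-fat ZT 16 replicate 3, chosen after seeing the data, gave 4. Sgk1, Tsc22d3 and Fabp7 kept their direction in all 17 settings and each passed in 9. Of 1144 values of named genes, 1104 kept their direction and side, 24 lost and 10 gained the threshold, and 6 reversed, all small: Csnk1d (-0.0141 with FPKM as deposited, and -0.0401 to 0.0615 with 1 library left out), Rorb (-0.0541 to 0.153), Csnk1e (-0.0619 to 0.0107) and Npas2 (-0.425 to 0.0194). Depth in reads is unknown, so no limit of detection is given.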
